A study of Mus musculus with 9 samples.

Results

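Chemokine receptors are the surface receptors through which leukocytes sense chemokine gradients and move into tissue, and 9 of them were followed here in the mouse substantia nigra. The 9 genes are Ccr1, Ccr2, Ccr6, Ccr7, Ccr8, Cxcr3, Cxcr4, Cxcr6 and Ackr1, chosen by name from 55450 annotated genes. Each symbol matched 1 gene of the GENCODE M21 annotation of mouse build GRCm38, and all 9 passed the filter on low counts.

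Bulk RNA was sequenced from manually dissected nigral tissue of mice given bilateral stereotaxic injections of a Cre-inducible lentivirus, with tissue taken 5 weeks after transduction. The CTR group (3 libraries) came from CX3CR1-CreERT2 mice with the GFP vector. The CX3 group (3 libraries) came from mice of the CX3CR1-CreERT2 line with the Synuclein-expressing vector. The DAT group (3 libraries) came from DAT-Cre mice with the Synuclein-expressing vector. In CX3CR1-CreERT2 mice recombination is driven from the fractalkine receptor locus, which is active in microglia but also in other macrophages and in monocytes. In DAT-Cre mice it is driven from the dopamine transporter locus of dopaminergic neurons. CX3CR1-CreERT2 mice, and so both CTR and CX3, received tamoxifen at 75 mg/kg on 4 days after surgery, and this is not stated for DAT-Cre mice. The mice were male, and their age was given as 8 weeks in one place and as 9 weeks at purchase in another. How many animals went into a library is not given. Every control library is of the CX3CR1-CreERT2 line, so between DAT and CTR the effects of the vector, the Cre line and the tamoxifen cannot be told apart.

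CC and CXC receptors are G protein-coupled receptors with 7 membrane-spanning segments. Ligand binding activates inhibitory G proteins and steers the cell along the gradient. Different leukocytes carry different sets: Ccr1 and Ccr2 are known from monocytes, Ccr7 from naive lymphocytes and migrating dendritic cells, and Cxcr3 and Cxcr6 from activated and tissue-resident T cells. Ackr1 is an atypical receptor of venular endothelium and erythroid cells that binds chemokines without G protein signalling. Healthy brain tissue holds few such leukocytes beyond those of its borders.

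A short coding stretch shows how these receptors differ in their signalling part. The Asp-Arg-Tyr motif, at the inner end of the third membrane segment, takes part in the coupling to G proteins. The 30 coding bases that begin at this motif are shown for the pair of monocyte receptors, for Cxcr4 and for Cxcr6, which departs from the motif. They were read from GENCODE M21 transcripts, 5′ to 3′ on the gene's strand in GRCm38 coordinates, with the 3 codons of the motif in capitals.
Ccr1 (chr9:123964075-123964104, minus strand, from codon 130): GACAGATACctggccattgtccatgctgtg
Ccr2 (chr9:124106132-124106161, plus strand, from codon 150): GATAGGTACttggctattgttcatgctgtg
Cxcr4 (chr1:128589491-128589520, minus strand, from codon 135): GACCGGTACctcgctattgtccacgccacc
Cxcr6 (chr9:123810338-123810367, plus strand, from codon 142): GATCGTTTCattgtagtggtccaggctacc
The motif was also found in Ccr6, Ccr7, Ccr8 and Cxcr3. In Cxcr6 the last codon of the motif encodes Phe in place of Tyr. In Ackr1, no Asp-Arg pair was found from the start to the middle of its 334 codons.

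Libraries held between 21592817 and 39475428 counts on genes. Levels are given below as CPM, counts per 1000000 counts on genes, with libraries scaled by the trimmed mean of M values (TMM), and a count of 3 corresponded to 0.0779 to 0.151 CPM. Libraries of the same group differed by 1.45 to 1.78 times the squared difference of counting noise in CTR and 2.52 to 6.45 times in CX3, while DAT library B stood apart from DAT libraries A and C, by up to 14.6 times. Between groups the ratio was 34.5 to 162. Ranks of 128 immunoglobulin variable genes, whose use is particular to each animal's B cells, correlated at Spearman's rho of 0.991 to 0.993 within CTR, 0.943 to 0.957 within CX3 and 0.783 to 0.891 within DAT, against 0.145 to 0.478 between groups. Whether the libraries of a group are separate animals or repeats of a shared RNA was not stated, so p-values measure the spread between these libraries, which may be technical.

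Each comparison was tested with edgeR's quasi-likelihood test over 20892 genes with Benjamini-Hochberg adjustment, and a gene was called at an adjusted p under 0.05. Between CX3 and CTR, 2 of the 9 receptors rose (Ccr1 and Ccr2), 4 fell (Ccr6, Ccr7, Cxcr3 and Cxcr4) and 3 did not pass (Ccr8, Cxcr6 and Ackr1). Of all genes, 14% were called higher and 16.5% lower. Between DAT and CTR, 1 receptor rose (Ackr1), 6 fell (Ccr2, Ccr7, Ccr8, Cxcr3, Cxcr4 and Cxcr6) and 2 did not pass (Ccr1 and Ccr6), against 32% of all genes called higher and 27.9% lower. In CX3 against DAT, 6 were higher, 1 (Ackr1) was lower and 2 (Ccr6 and Ccr7) did not pass, against 27.6% and 31.3% of all genes. The median log2 fold change over the 9 receptors was -0.16 for CX3 minus CTR, -0.93 for DAT minus CTR and 0.45 for CX3 minus DAT. Over all genes tested it was -0.0033, -0.0038 and 0.01, with median absolute values of 0.19, 0.39 and 0.37.

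With a change of at least 2-fold required in addition, 1 receptor was higher and 2 lower in CX3 than in CTR, where 1.33% and 2.26% of all genes were. In DAT against CTR 0 were higher and 4 lower, against 3.88% and 12% of all genes. In CX3 against DAT 3 were higher and 0 lower, against 11% and 4.37%. The split of all called genes depended on the scaling. Genes called higher made up 45.9%, 53.4% and 46.8% of calls in CX3 minus CTR, DAT minus CTR and CX3 minus DAT with TMM, and 58.9%, 37.8% and 66.7% with library size alone, which moved the median of all genes by 0.05, -0.15 and 0.19 on the log2 scale. No receptor's call changed with library size alone or with DESeq2 size factors. The comparisons with CTR share the same 3 control libraries.

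**Figure D1:**
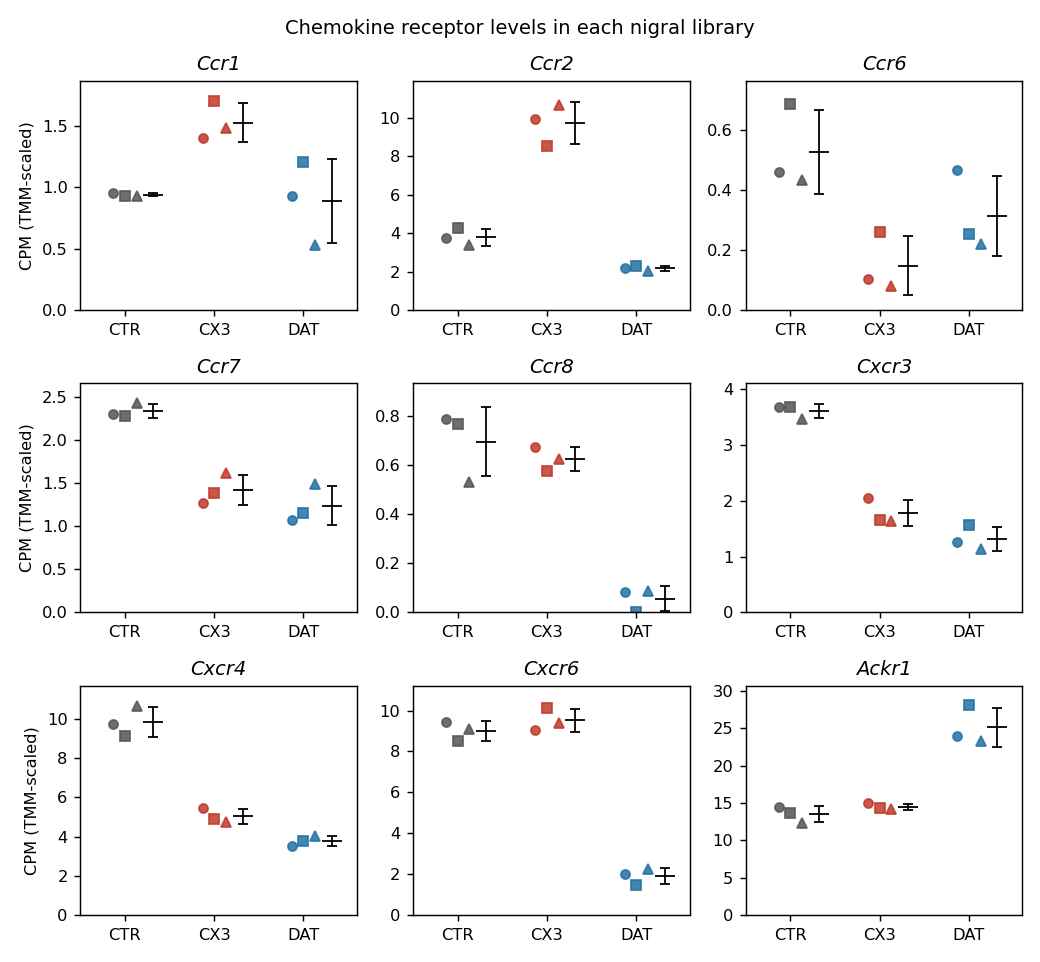
Level of each receptor in every library, in TMM-scaled CPM on the vertical axis with a separate scale per gene, for CTR, CX3 and DAT. Circles, squares and triangles are libraries A, B and C, and black bars are the mean ± SD of 3 libraries. Ccr2 is highest in CX3 and lowest in DAT with no overlap between groups, while Cxcr6 and Ccr8 overlap between CTR and CX3 and are lower in DAT.

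Ccr2 is the receptor by which inflammatory monocytes leave the bone marrow and enter tissue. Of the 9 receptors, it alone was called in opposite directions in CX3 and in DAT. Outside the 9, the same held for the chemokine receptor Xcr1 and for the ligands Ccl6, Ccl8, Cxcl9 and Cxcl11. Ccr2 lies at chr9:124101950-124113557 on the plus strand. It stood at 3.74, 4.26 and 3.37 CPM in the CTR libraries A, B and C, at 9.94, 8.55 and 10.7 CPM in CX3 and at 2.17, 2.31 and 2.02 CPM in DAT. Every CX3 library lay above every CTR library, and every DAT library below. The level rose 2.56-fold in CX3 (log2 fold change 1.35 ± 0.11 SE, adjusted p = 9.13e-07, edgeR) and fell 1.76-fold in DAT (-0.82 ± 0.15, adjusted p = 0.000258, edgeR). CX3 exceeded DAT 4.50-fold (2.17 ± 0.13, adjusted p = 5.32e-09, edgeR). Its 3 CX3 libraries varied more than counting noise, by a ratio of 4.32.

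Ccr1, a receptor of monocytes and neutrophils for several inflammatory CC chemokines, was called higher in CX3. Its counts were 29, 34 and 28 in CTR, 54, 59 and 57 in CX3 and 34, 24 and 12 in DAT. As CPM the CTR mean was 0.940 ± 0.011, the CX3 mean 1.53 ± 0.16 and the DAT mean 0.889 ± 0.34 (SD, n = 3 libraries each). The CX3 libraries lay above all others, and the DAT libraries spread across the CTR values. The rise over CTR was 1.62-fold (0.70 ± 0.22, adjusted p = 0.0292, edgeR) and that over DAT 1.72-fold (0.79 ± 0.24, adjusted p = 0.0105, edgeR). The call against CTR was lost without CTR library A, B or C and without CX3 library B or C, at adjusted p of 0.0601 to 0.102. DAT minus CTR was -0.09 ± 0.26 and did not pass. Of the neutrophil markers, S100a8 (-1.48), S100a9 (-1.59) and Ngp (-2.46) fell in CX3 against CTR, Retnlg rose (1.36) and Camp was not tested. The summed level of these markers was low, at 3.05 to 3.33 CPM in CTR, 1.17 to 1.44 in CX3 and 0.570 to 1.07 in DAT. Their part in the Ccr1 result was not tested.

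Monocyte markers differed in direction in CX3. In CX3 against CTR, Chil3 rose (log2 fold change 2.69) and F13a1 rose (0.52), Ly6c2, the classical monocyte surface marker, fell (-2.17), and Plac8 did not pass (0.06). The summed level of these 4 genes was 52.4 to 53.2 CPM in CTR, 28.4 to 30.5 in CX3 and 11.8 to 13.8 in DAT. None was at 0. Most of the CTR sum was Ly6c2, which averaged 39.2 CPM in CTR, 8.70 in CX3 and 2.40 in DAT, so the sum mainly follows this gene. Chil3 averaged 0.713 CPM in CTR, 4.61 in CX3 and 0.0573 in DAT. In DAT against CTR, Ly6c2 (-4.03), Chil3 (-3.71) and Plac8 (-1.87) fell and F13a1 rose (0.40). Their part in the Ccr2 and Ccr1 results was not tested. In bulk tissue, fewer cells of a type and less RNA per cell cannot be told apart.

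**Figure D2:**
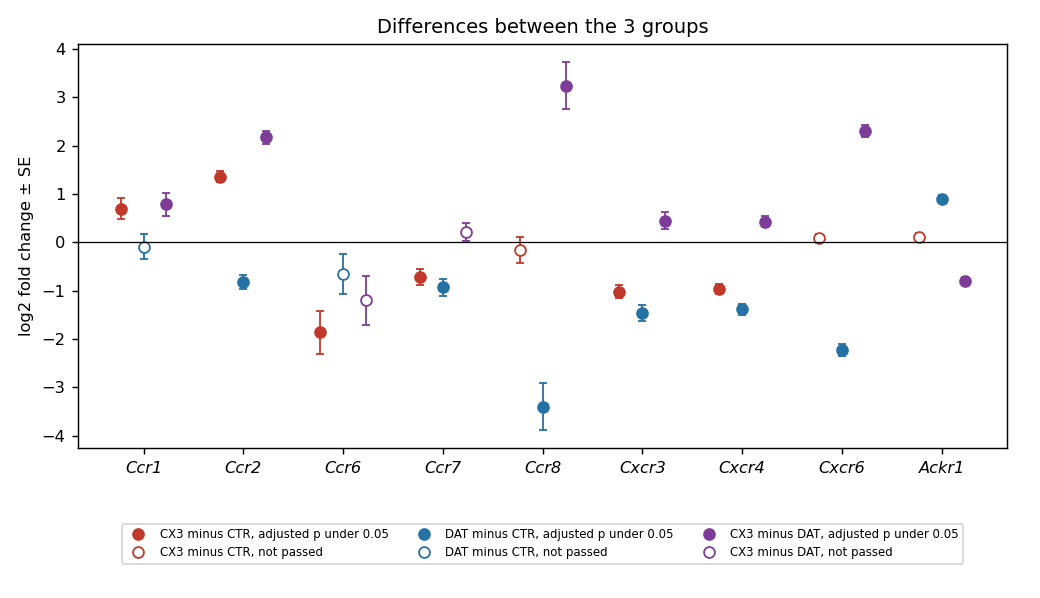
Log2 fold change ± SE of each receptor in CX3 minus CTR, DAT minus CTR and CX3 minus DAT. Filled points passed an adjusted p of 0.05 in edgeR and open points did not. Ccr2 lies above 0 in CX3 minus CTR and below 0 in DAT minus CTR, and Ackr1 alone rises in DAT.

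Cxcr6, which binds membrane-bound Cxcl16 and is carried by tissue-resident CD8 T cells, did not pass between CX3 and CTR and was lower in DAT. It was counted 287, 309 and 273 times in CTR, 349, 351 and 360 times in CX3 and 73, 29 and 51 times in DAT, or 9.01 ± 0.48, 9.52 ± 0.55 and 1.90 ± 0.40 CPM (SD, n = 3). CTR and CX3 libraries overlapped and all DAT libraries lay below them. DAT was 4.66-fold lower than CTR (-2.22 ± 0.13, adjusted p = 3.14e-09, edgeR) and CX3 was 4.93-fold higher than DAT (2.30 ± 0.13, adjusted p = 1.96e-09, edgeR). CX3 minus CTR was 0.08 ± 0.10 (adjusted p = 0.562, edgeR).

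Ccr8, found on regulatory and skin-homing T cells, was likewise lower in DAT and did not pass between CX3 and CTR. Its counts were 24, 28 and 16 in CTR and 26, 20 and 24 in CX3, but 3, 0 and 2 in DAT, which is at or under the floor of 3 counts in each library. The summed counts of DAT, scaled for depth, were 0.0900 times those of CTR, with a 95% counting interval of 0.0283 to 0.220. CX3 stood 9.93 times above DAT (interval 4.06 to 31.5), and these intervals cover counting error only. The fitted difference between DAT and CTR passed the test (adjusted p = 2.84e-05, edgeR), as did that between CX3 and DAT (adjusted p = 4.79e-05, edgeR). CX3 minus CTR was -0.16 ± 0.28 and did not pass. Of 4 regulatory T cell markers, Foxp3 (-0.76), Ctla4 (-0.62) and Ikzf2 (-0.52) fell in CX3 against CTR, and Il2ra (0.11) did not pass. In DAT against CTR 4 of 4 fell. The part of these markers in the Ccr8 result was not tested.

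Cxcr3, the receptor of effector T cells for interferon-induced chemokines, fell in both groups. CTR libraries held 3.68, 3.68 and 3.47 CPM, CX3 libraries 2.05, 1.65 and 1.64 CPM and DAT libraries 1.26, 1.56 and 1.14 CPM. No CTR library overlapped another group, and the lowest CX3 library was close above the highest DAT library. The fall was 2.02-fold in CX3 (-1.02 ± 0.14, adjusted p = 0.000111, edgeR) and 2.76-fold in DAT (-1.46 ± 0.16, adjusted p = 2.40e-06, edgeR). CX3 exceeded DAT by 0.45 ± 0.17 (adjusted p = 0.0387, edgeR). That last call was lost with DESeq2 (adjusted p = 0.0651), with only CX3 and DAT in the fit (0.0668), and without CX3 library A, DAT library A or DAT library C (0.109 to 0.116).

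Cxcr4, the receptor for Cxcl12 that is found on most leukocytes and also on neural progenitors, fell likewise. Its level was 9.75, 9.15 and 10.7 CPM in CTR, 5.48, 4.88 and 4.77 CPM in CX3 and 3.54, 3.77 and 4.04 CPM in DAT. The 3 groups did not overlap. It was 1.95-fold lower in CX3 (-0.96 ± 0.10, adjusted p = 4.92e-06, edgeR) and 2.62-fold lower in DAT (-1.39 ± 0.11, adjusted p = 6.12e-08, edgeR), and CX3 exceeded DAT by 0.42 ± 0.11 (adjusted p = 0.00482, edgeR).

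Ccr7, which guides naive lymphocytes and dendritic cells to lymph nodes, was counted 70, 83 and 73 times in CTR, 49, 48 and 62 times in CX3 and 39, 23 and 34 times in DAT. All CX3 and DAT libraries lay below the CTR libraries, and CX3 and DAT overlapped. It fell by 0.71 on the log2 scale in CX3 (SE 0.16, adjusted p = 0.00472, edgeR) and by 0.93 in DAT (SE 0.18, adjusted p = 0.000445, edgeR). CX3 minus DAT was 0.22 ± 0.19 and did not pass.

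Ccr6, a receptor of B cells and interleukin-17-producing lymphocytes, was among the least expressed. It had 14, 25 and 13 counts in CTR, 4, 9 and 3 in CX3 and 17, 5 and 5 in DAT. The CX3 libraries lay below the CTR libraries, whereas DAT library A was within the CTR range. Its summed counts in CX3 were 0.267 times those in CTR, with a 95% counting interval of 0.142 to 0.475, and the fall passed the test (-1.86 ± 0.45, adjusted p = 0.00655, edgeR). DAT minus CTR was -0.66 ± 0.41 and did not pass. CX3 minus DAT, at -1.20 ± 0.51, missed the threshold (adjusted p = 0.0582, edgeR) and passed it without CX3 library B (0.0158) or DAT library B (0.0437). The summed level of 5 B cell markers was 19.7 to 21.9 CPM in CTR, 11.96 to 12.6 in CX3 and 16.0 to 20.98 in DAT. Of the 5, 4 fell in CX3, and 4 fell and 1 rose in DAT. The part of these markers in the Ccr6 result was not tested.

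T cell markers were already present in the CTR libraries. In DAT they fell, as Ccr7, Ccr8, Cxcr3, Cxcr4 and Cxcr6 did. In CX3 some of them fell, as Ccr7, Cxcr3 and Cxcr4 did, whereas Ccr8 and Cxcr6 did not pass. Of 10 T cell markers, 6 fell and 0 rose in CX3 against CTR, at log2 fold changes of -0.29 for Cd3g to -0.68 for Cd4, and 10 of 10 fell in DAT, with Cd3g at -2.38 and Cd8a at -2.16. Their summed level was 77.8 to 79.9 CPM in CTR, 62.6 to 67.2 in CX3 and 20.5 to 23.7 in DAT. Cd8a, the CD8 T cell chain, was at 15.3 CPM in CTR and 14.8 in CX3, and did not pass there. Cd4 fell from 5.30 to 3.31 CPM. None of the 10 was at 0 in any group, and their part in the receptor results was not tested. With library size alone, Cd3g and Cd8b1 no longer passed in CX3 minus CTR. Without DAT library B, all 10 were still lower in DAT than in CTR.

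Ackr1, the atypical receptor, was the one member that rose in DAT. It stood at 14.5, 13.6 and 12.3 CPM in CTR, 15.0, 14.3 and 14.2 CPM in CX3 and 24.0, 28.2 and 23.3 CPM in DAT. The DAT libraries lay above all others, and CTR and CX3 overlapped. DAT was 1.86-fold higher than CTR (0.89 ± 0.08, adjusted p = 3.28e-07, edgeR) and CX3 was 1.73-fold lower than DAT (-0.79 ± 0.08, adjusted p = 9.10e-07, edgeR). CX3 minus CTR was 0.10 ± 0.08 and did not pass. The DAT libraries varied more than counting noise, by a ratio of 5.998.

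The Ackr1 locus is shared. Ackr1 lies at chr1:173331886-173333750 on the minus strand, and 361 of its exon bases (25.7%) are also exon bases of Cadm3, a neuronal cell adhesion gene on the same strand whose annotated end lies 328 bases from the main coding exon of Ackr1. Cadm3 is abundant, at 162 CPM in CTR, 173 in CX3 and 344 in DAT, and its log2 fold changes of 0.09, 1.08 and -0.99 in the 3 comparisons had the same signs as those of Ackr1. Of the 76-base words of Ackr1, 16.7% also occur in Cadm3. A read naming both genes falls under the ambiguous reads, which made up 4.34% to 5.67% of reads and were counted for no gene. Endothelial markers rose in DAT too, with 4 of 4 general markers higher than in CTR (3 with library size alone, without Pecam1), among them Cdh5 (1.24) and Cldn5 (1.36). In CX3, where Ackr1 did not pass, 2 of the 4 were higher than in CTR, Cldn5 (1.20) and Flt1 (0.28), and Pecam1 (0.07) and Cdh5 (-0.04) did not pass. The summed level of the 4 was 131 to 133 CPM in CTR, 183 to 192 in CX3 and 251 to 259 in DAT. Of 5 venular markers, the 3 tested rose in DAT (Vwf 1.82, Nr2f2 0.65 and Plvap 0.95), whereas Selp and Sele, which define activated venules, had 0 to 9 counts in any library. In CX3, Vwf fell (-0.28), Plvap rose (0.32) and Nr2f2 (0.03) did not pass. The summed level of the 5 was 68.4 to 70.2 CPM in CTR, 65.2 to 69.2 in CX3 and 151 to 169 in DAT. Summed erythroid markers reached 242 to 267 CPM in CTR, 94.5 to 108 in CX3 and 187 to 266 in DAT. Neuron markers rose in DAT as well, with Rbfox3 at 1.17, Snap25 at 0.71 and Syt1 at 0.35 against CTR. In CX3 against CTR, Rbfox3 (0.18) and Snap25 (0.39) rose and Syt1 (-0.10) did not pass. What share of the Ackr1 difference goes with Cadm3, with neurons or with vessels was not tested.

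**Figure D3:**
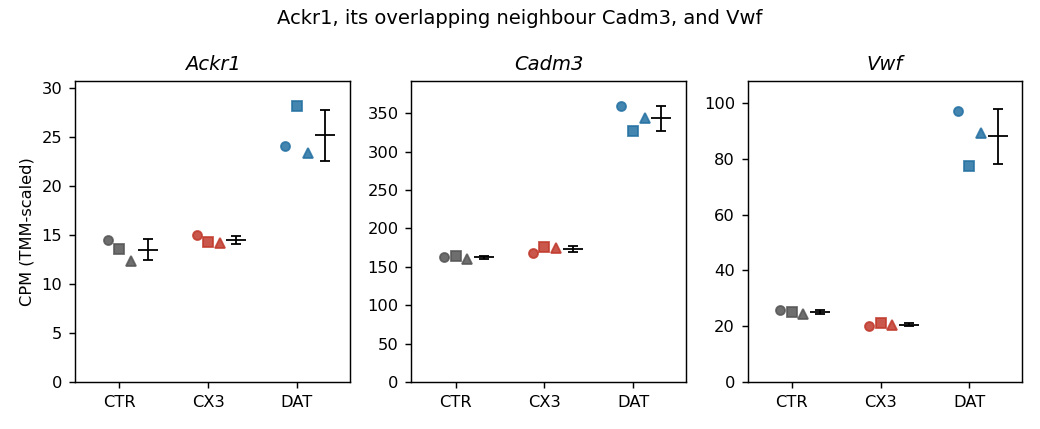
TMM-scaled CPM of Ackr1, of Cadm3, whose exons overlap it on the same strand, and of the endothelial gene Vwf in each library, with mean ± SD (n = 3) as black bars and libraries A, B and C as circles, squares and triangles. All 3 genes are higher in every DAT library than in any CTR or CX3 library.

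Compared per kilobase of exon, which allows genes to be ranked, Ackr1 led in every group, at 9.59 CPM per kb in CTR, 10.3 in CX3 and 17.9 in DAT. In CTR it was followed by Cxcr4 (5.45 CPM per kb), Cxcr6 (4.66), Cxcr3 (2.08), Ccr7 (1.18), Ccr8 (0.593), Ccr2 (0.561), Ccr1 (0.332) and Ccr6 (0.227). The ranges of the neighbours Ccr8 and Ccr2 overlapped, and those of the other neighbouring pairs did not. In CX3, Cxcr6 (4.93) stood above Cxcr4 (2.79) and Ccr2 (1.44) moved up to the fourth place, above Cxcr3 (1.03), with only Ccr1 (0.540) and Ccr8 (0.533) overlapping. In DAT, Cxcr4 (2.09) was followed by Cxcr6 (0.984), Cxcr3 (0.763) and Ccr7 (0.627), whose ranges overlapped in turn, and by Ccr2 (0.320), Ccr1 (0.314) and Ccr6 (0.135), of which Ccr2 and Ccr1, and Ccr1 and Ccr6, overlapped. Ccr8 was last in DAT, at 0.0482 CPM per kb. For scale, the microglial receptor Cx3cr1 stood at 22.7, 9.90 and 18.5 CPM per kb in CTR, CX3 and DAT.

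**Figure D4:**
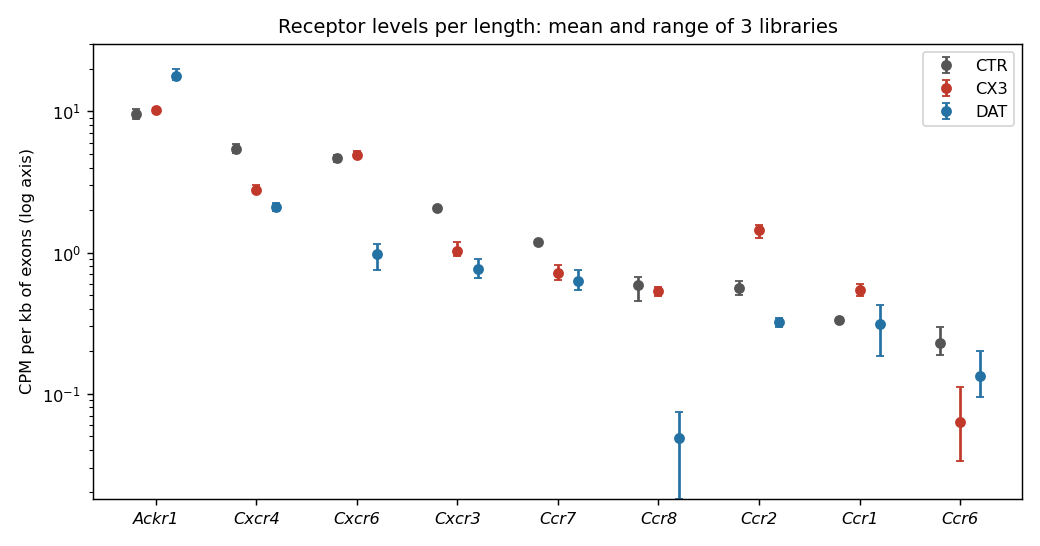
Receptor levels in CPM per kilobase of exon on a log axis, ordered by the CTR mean, with points at the mean and bars over the range of 3 libraries in CTR, CX3 and DAT. Ackr1 is highest in every group. The bar of Ccr8 in DAT runs to the foot of the axis because 1 library was at 0.

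Of 17 listed chemokine ligands, 15 were tested. In CX3 against CTR 6 rose, 3 fell and 6 did not pass (median log2 fold change 0.02), and in DAT 1 rose, 13 fell and 1 did not pass (median -1.88). In CX3 against DAT, 13 were higher and 1 lower (median 1.81). These counts were 6 and 3, 1 and 13, and 14 and 0 with library size alone, where Cxcl12 no longer passed in CX3 minus DAT.

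None of the 3 listed ligands of Ccr2 was called higher in CX3. Ccl2, its main ligand, was at 5.26 CPM in CTR and 5.32 in CX3 (log2 fold change 0.02), Ccl7 at 2.33 and 2.07 CPM (-0.17), and Ccl12, a mouse monocyte attractant, fell (-0.35, adjusted p = 0.0201, edgeR). In DAT all 3 fell, by 2.40, 1.98 and 2.27 on the log2 scale. Among the ligands of Ccr1, Ccl6 rose in CX3 (0.40, adjusted p = 0.00533, edgeR), Ccl5 fell (-0.44, adjusted p = 0.000216, edgeR), and Ccl3 (-0.20), Ccl7 and Ccl9 (-0.05) did not pass. Ccl5, which effector T cells also release, was at 33.3 CPM in CTR, 24.5 in CX3 and 11.2 in DAT.

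Both listed ligands of Ccr8 rose in CX3 while Ccr8 did not pass. Ccl8, a macrophage product that binds Ccr8 in the mouse, was at 3.84, 4.15 and 3.53 CPM in CTR, 13.4, 11.7 and 11.3 CPM in CX3 and 0.521, 0.805 and 0.570 CPM in DAT. It rose 3.15-fold in CX3 (1.66 ± 0.11, adjusted p = 6.54e-08, edgeR), and the groups did not overlap. Ccl1 had 6, 4 and 1 counts in CTR, 14, 24 and 18 in CX3 and 3, 0 and 1 in DAT, and rose in CX3 (2.11 ± 0.50, adjusted p = 0.00593, edgeR).

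The ligands of Cxcr3 split in CX3. Cxcl9, induced by interferon-γ, rose from 32.1 to 57.0 CPM (0.83 ± 0.06, adjusted p = 2.37e-07, edgeR) and Cxcl11 from 1.30 to 2.14 CPM (0.70 ± 0.21, adjusted p = 0.0228, edgeR). Cxcl10, induced by interferons of several types, fell from 69.7 to 44.5 CPM (-0.65 ± 0.05, adjusted p = 4.00e-07, edgeR). In DAT all 3 fell with their receptor, to 6.32, 0.338 and 15.6 CPM. Cxcl12, the ligand of Cxcr4 made by stromal and endothelial cells, moved against its receptor. It was 35.7 CPM in CTR, 56.1 in CX3 and 64.1 in DAT, a rise of 0.65 ± 0.05 and 0.85 ± 0.05 on the log2 scale (adjusted p = 5.04e-07 and 7.04e-09, edgeR). Cxcl16, the ligand of Cxcr6, did not pass in CX3 (18.7 and 19.3 CPM, log2 fold change 0.04) and fell to 6.29 CPM in DAT (-1.58 ± 0.07, adjusted p = 3.12e-10, edgeR), as its receptor did. Ccl19, a ligand of Ccr7, did not pass in CX3 (-0.43) and fell in DAT (-0.94). Ccl20 and Ccl21a had at most 3 counts in any library and were not tested.

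**Figure D5:**
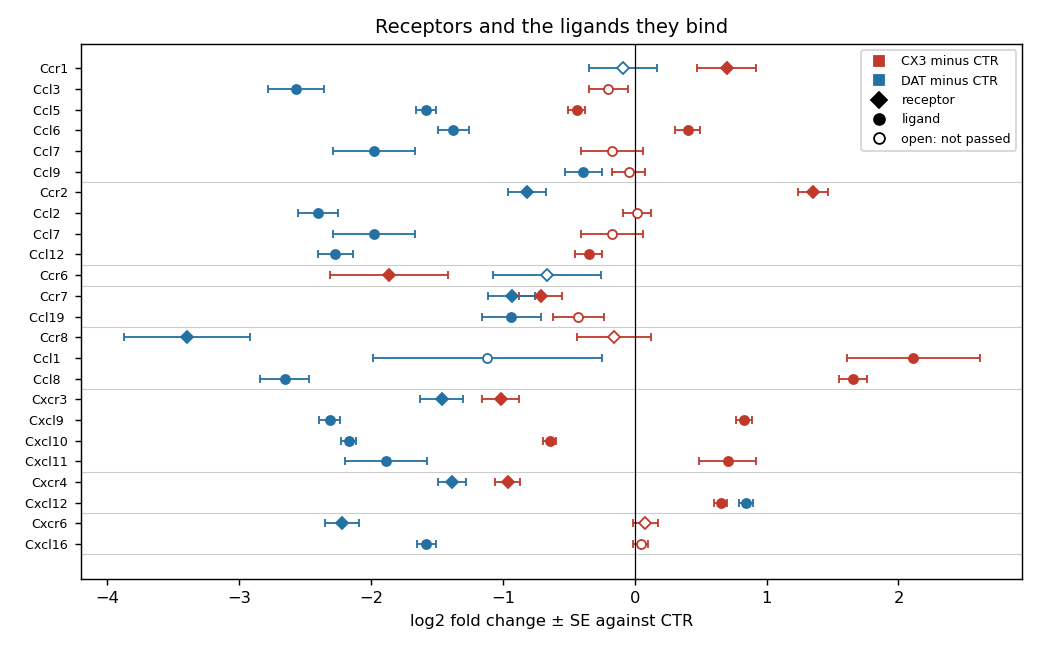
Log2 fold change ± SE against CTR of 8 receptors (diamonds) and of the tested ligands that bind them (circles), grouped by receptor, for CX3 (red) and DAT (blue), open where the test was not passed. In CX3 the 2 ligands of Ccr8 rise without it and Cxcl12 rises while Cxcr4 falls, and in DAT every ligand shown but Cxcl12 and Ccl1 falls.

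Of 14 other chemokine receptors, 10 were tested. In CX3 against CTR, 2 rose, 3 fell and 5 did not pass (median -0.23). Xcr1, the receptor of cross-presenting dendritic cells, rose 4.10-fold (2.04 ± 0.22, adjusted p = 1.02e-05, edgeR), from 0.775 to 3.16 CPM, and of the 3 dendritic cell markers Clec9a, another gene of these cells, rose (1.58), while Flt3 (-0.02) and Zbtb46 (0.15) did not pass. Ackr4, a scavenger of Ccl19 and Ccl21, rose 2.62-fold from 0.219 to 0.575 CPM (1.39 ± 0.33, adjusted p = 0.00586, edgeR). Cx3cr1 fell from 102 to 44.6 CPM (-1.20 ± 0.05, adjusted p = 2.84e-10, edgeR). It was 83.4 CPM in DAT, and the Cre of CTR and CX3 mice, but not of DAT mice, sits in this gene. The microglial markers moved beside it, with 5 of 6 lower in CX3 and 5 of 6 lower in DAT than in CTR, and summed levels of 623 to 629, 438 to 449 and 415 to 427 CPM. Ackr3, which scavenges Cxcl12, was lower in CX3 (-0.22 ± 0.07, adjusted p = 0.0295, edgeR), a call lost with library size alone, and in CX3 minus DAT its direction turned with that scaling. In DAT against CTR, 0 of the 10 rose and 6 fell (median -0.76). Xcr1 was among those that fell (-1.67 ± 0.37, adjusted p = 0.00130, edgeR), so its calls in CX3 and in DAT were opposite, like those of Ccr2.

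Of 14 genes that transmit the receptor signal, 2 rose and 4 fell in CX3 (median -0.11), where no change reached 2-fold, and 3 rose and 3 fell with library size alone, without Gnai3. Dock2, the leukocyte exchange factor for Rac, fell (-0.65, adjusted p = 1.68e-05, edgeR), as did Rgs1, a brake on G protein signalling in lymphocytes (-0.61, adjusted p = 0.00101, edgeR), and Pik3cg, the kinase downstream of Gβγ (-0.44, adjusted p = 0.00130, edgeR). In DAT against CTR 7 rose and 6 fell (median 0.06), or 5 and 6 with library size alone, without Gnai2 and Gng2. The genes that fell there were Rgs1 (-2.63), Rac2 (-1.55), Pik3cg (-1.35), Dock2 (-1.16), Pik3r5 (-0.81) and Gnai3 (-0.36). Those that rose were Prex1 (0.59), Grk6 (0.58), Arrb1 (0.48), Grk2 (0.43), Elmo1 (0.37), Gng2 (0.23) and Gnai2 (0.17), and Arrb2 (-0.06) did not pass.

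The genes whose log2 CPM followed each receptor most closely over the 9 libraries are given as a description, since the points share 3 groups. Among about 16270 genes with a mean of at least 1 CPM, the nearest to Cxcr6 were Sfxn2 (Pearson's r = 0.999), 2900076A07Rik (0.997) and Nlrc5 (0.997), a regulator of MHC class I genes. Those nearest to Ccr8 were B230303O12Rik (0.992), Pdcd1 (0.992), the checkpoint receptor PD-1, and Cyp2j12 (0.992). The nearest to Cxcr3 were Tmem176a (0.994), Cyp7b1 (0.994) and Selplg (0.993), the selectin ligand of leukocytes. The nearest to Cxcr4 were Ighv7-3 (0.992), Ighm (0.990) and Lcn2 (0.988), 2 of which are immunoglobulin genes. The nearest to Ccr2 were Fendrr (0.994), Mill2 (0.993) and Prr18 (0.992). The nearest to Ackr1 were Fam131a, Mtch1 and Mtfp1 (all 0.994), and to Ccr7 Nono (0.981), Ddx5 (0.978) and Apoc1 (0.977). Likeness was lower for Ccr1, with Zfp949 (0.965), Itgb3bp (0.960) and Clec2d (0.949), and for Ccr6, with S1pr3 (0.944), G6pdx (0.935) and Maml2 (0.926). A value of r over 0.95 was reached by 875 genes for Cxcr6, 850 for Ackr1, 445 for Ccr8, 100 for Ccr2, 2 for Ccr1 and 0 for Ccr6.

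Markers of tissue outside the nigra also differed between groups. Summed choroid plexus markers were 32.8 to 35.7 CPM in CTR, 1468 to 1578 in CX3 and 866 to 1038 in DAT. Of the pituitary hormone genes, Gh averaged 34.7 CPM in CTR, 0.217 in CX3 and 0.103 in DAT, Prl averaged 5.85 and 0.0539 CPM in CTR and CX3 and was at 0 in DAT, and Pomc, which hypothalamic neurons also express, averaged 17.9, 2.73 and 17.2 CPM. Of the cerebellar granule lineage markers, Fat2 averaged 0.569 CPM in CTR, 1.58 in CX3 and 14.2 in DAT, and Cbln3 averaged 0.622, 0.680 and 1.48 CPM. Gabra6 of the same list had 1 to 5 counts in any library and was not tested. Markers of plasma cells, which carry Cxcr4, were at 298 to 315, 73.5 to 78.1 and 12.8 to 15.9 CPM in CTR, CX3 and DAT. Markers of dopaminergic neurons were present in all libraries, at 835 to 843, 1017 to 1034 and 645 to 661 CPM. The part of these differences in the receptor results was not tested.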

How the data were processed

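Nigral tissue of 9 libraries was dissected and lysed in Trizol, and libraries were made with a stranded mRNA kit from RNA with an integrity number of at least 9. Reads of 76 bases came from an Illumina HiSeq 3000. The submitters' processing notes name Trimmomatic, STAR, featureCounts, DESeq2 and mm10, with versions not given in the sources used here. The authors deposited 1 table of raw counts per gene and library, laid out as STAR's gene counts with an unnormalized column that ignores strand and 1 for either strand. Of the counts, 49.8% to 49.9% were on the reverse strand, and the column that ignores strand was used. Transcripts of either strand over a gene cannot be told apart in it. Reads naming no single gene (30.5% to 35.9%) were left out, among them ambiguous reads on more than 1 gene.

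Samples were grouped by the labels. The filter was filterByExpr, and 20892 genes over 9 libraries were fitted together with group as the only term in edgeR 4.0.16 (R 4.3.3), with TMM factors, glmQLFTest and Benjamini-Hochberg adjustment. The study used DESeq2, which was run here as an alternative (1.42.0). The SE is the absolute log2 fold change over the square root of F. Gene models were those of GENCODE M21. The fit was tested on simulated data with less spread between libraries than was fitted here. The receptors and gene lists were chosen with earlier results of these data known. All 9 receptors were named, with the ligands that bind them, Cx3cr1 and Ackr3, up to 3 listed genes with the largest change between CX3 and CTR, and the 3 most alike genes per receptor. Markers named beside them were chosen after their values were seen. Some listed genes are not reported here.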

Additional observations from a re-analysis of the deposited data

Results flagged for a closer look

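For 7 of the 9 receptors the difference from the shared CTR libraries was not the same in CX3 and in DAT. This was edgeR's quasi-likelihood test of CX3 minus DAT itself, with Benjamini-Hochberg adjustment. In the same comparison, 27.6% of all genes tested were called higher and 31.3% lower. The log2 difference was 3.24 for Ccr8, 2.30 for Cxcr6, 2.17 for Ccr2, 0.79 for Ccr1, 0.45 for Cxcr3 and 0.42 for Cxcr4, and -0.79 for Ackr1. Of the 9, only Ccr2 lay above CTR in every CX3 library and below it in every DAT library. DAT levels of Ccr8 are at or under 3 counts. CX3 and DAT differ in the Cre line, in the cells that recombine and in the stated tamoxifen, which cannot be told apart, and groups of 3 libraries are too small for a test of single outlying libraries.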

How the results depend on the processing

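With a change of at least 2-fold required in addition, the receptors called were 1 higher and 2 lower in CX3 minus CTR. They were 0 higher and 4 lower in DAT minus CTR, and 3 higher and 0 lower in CX3 minus DAT. In the same order, all genes called were 278 higher and 472 lower, 810 and 2511, and 2300 and 912. Library size alone called 8916 genes higher in CX3 minus DAT. Reverse-strand counts, about 0.5 of the depth, gave 1 receptor higher and 2 lower in CX3 minus CTR, since Ccr1 (adjusted p = 0.0580, edgeR) and Ccr7 (0.134) no longer passed and Ccr6 was filtered out. With these counts Cxcr3 (0.231) and Cxcr4 (0.0545) did not pass in CX3 minus DAT, and Ccr1 in DAT minus CTR, never called, moved to 0.019. With 1 library left out, receptors called higher in CX3 minus CTR numbered 1 to 2 and lower in CX3 minus DAT 1 to 2, and Ccr1 in DAT minus CTR ranged from -0.296 to 0.135. Cxcr3 in CX3 minus DAT also failed with no filter (0.0771). A minimum of 10 counts in every library left Ccr6 and Ccr8 without a value. The letters A to C as a replicate block changed no receptor's call, with 2 higher and 4 lower in CX3 minus CTR. The letters did not pair the libraries (correlations of deviations -0.16 to 0.04, best match with the own letter in 3 of 9). Ccr6 and Ccr8, with at most 28 counts a library, are limited by depth.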
